A study of Oryza sativa with 12 samples.

Results

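Auxin response genes were followed in shoots of 4 rice lines on an Affymetrix rice array. The genes were those whose symbol or synonym, with a leading Os ignored, is IAA, SAUR or ARF followed by a number. The gene table held 52 of them, and 44 were paired with a probe set, of 17905 genes with such a pairing. These 44 were 26 of 28 Aux/IAA genes, 17 of 23 ARF genes and 1 SAUR gene, SAUR39. IAA11, IAA29, ARF5, ARF6, ARF8, ARF19, ARF21 and ARF25 had no paired probe set and were not analysed here. Some measured genes carry a second member name. ARF12 is listed also as ARF8, ARF18 as ARF10 and ARF4 as ARF2, while IAA5 is listed also as IAA8 and IAA4 as IAA20. A single SAUR gene says nothing of that large family.

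The lines were the parental cultivar Taichung 65 (T65) and 3 mutant lines made in T65, named gid1-3, gid2-1 and slr1 (k1001). SLR1 is the DELLA protein that holds gibberellin responses back. GID1 binds gibberellin, and GID2 is an F-box protein through which SLR1 is then degraded. All plants grew in a greenhouse, and shoots were taken at an age of 5 weeks. No other treatment is named. Each line was measured on 3 arrays, 1 for each biological replicate. Whether k1001 is a loss or a gain of SLR1 function is not stated in the labels, nor is it stated whether the replicates came from separate plants, so the p values measure the spread between these samples.

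Aux/IAA proteins are short-lived repressors. They bind to auxin response factors (ARFs), which sit on the promoters of auxin-regulated genes, and keep those genes off. Auxin joins Aux/IAA proteins to their TIR1/AFB receptors, so that the repressors are degraded and the ARFs are released. Many Aux/IAA, SAUR and GH3 genes are themselves induced early by auxin, and in grass shoots auxin and gibberellin both act on stem elongation.

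Signals below are scaled linear intensities of 1 probe set per gene, given for replicates 1, 2 and 3 in that order or as mean ± SD with n = 3. Changes are on the log2 scale ± SE, and a gene was called at an adjusted p under 0.05 from a limma fit over all 57194 probe sets. The 3 comparisons with T65 share the same T65 arrays. Probe sets differ in brightness for the same amount of RNA, so no gene's level is set against another's. The array's controls for foreign reporter genes gave a 95th percentile of at most 42 on a T65 array and of at most 52.2 on a mutant array. The mean signal lay above that level in all lines for 39 of the 44 genes and only in T65 for IAA4. It did so in no line for IAA16, IAA20, IAA26 and ARF13, and none of these 4 was called in any comparison. A mean above it in some line was found for 40 of the 44 genes (90.9%) and for 92.7% of all genes.

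Series-wide checks were as follows. GID1 signal was 4442 to 4537 in T65, 6238 to 6568 in gid1-3 and 5628 to 6457 in gid2-1, while slr1 had 2456 to 2467, and SLR1 signal was 1235 to 1355, 820.1 to 839, 1103 to 1177 and 1473 to 1631 in the same order. The GID2 entry with a probe set also carries the name of a 14-3-3 protein, so no GID2 value is given. None of these signals shows whether a mutation is present. The 3 measured markers of green shoots, RBCS, CAB2R and FBA1, were bright in every line, with summed signals from 44500 to 66600. Of 5 root markers 3 lay above the reporter level in each line, and their sum was 3720 to 4080 in T65, 7470 to 8580 in gid1-3 and 5950 to 6420 in gid2-1, while slr1 had 3070 to 3420, most of it from NAAT1. These 3 did not move together. NAAT1 rose in gid1-3 (log2 change 1.18) and gid2-1 (0.41) and fell in slr1 (-0.51). LSI1 rose in gid2-1 (1.59) and slr1 (0.54) but was not called in gid1-3 (0.04), and IRT1 was called in no mutant. The part of these markers in the results below was not tested. The root markers LSI2 and PT6 lay below that level in every line. Of 7 seed storage genes 4 lay above the level in T65 and 2 to 3 in the mutants. The summed signal of all 7 was 727 to 831 in T65 and 827 to 897 in gid1-3. It was 868 to 913 in gid2-1 and highest in slr1, at 1030 to 1070. Since whole shoots were measured, fewer cells of a type and less RNA per cell cannot be told apart.

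Over the 4 lines together, 35 of the 44 genes varied by the F-test, which is 79.5%, against 39.9% of all probe sets and 74.7% of all genes with 1 probe set each. That share is near the share of all genes. The direction of the changes is given below by class and by mutant.

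In gid1-3, the receptor mutant, 34 of the 44 genes were called, 8 higher and 26 lower than in T65 (77.3%, against 29.5% of all probe sets and 56.4% of all genes). Higher calls made up 18.2% of the 44, against 25.8% of genes, and lower calls 59.1%, against 30.6% of genes. The median log2 change was -0.55, against -0.04 over all genes. Among the Aux/IAA genes 13 fell, 5 rose and 8 were not called, with a median of -0.43. Lower calls made up 50% of this class, against 30.6% of genes, and higher calls 19.2%, against 25.8%. With arrays centred on the spiked controls, a scaling that moved the median of all probe sets by -0.22, the Aux/IAA split was 15 lower and 3 higher, and that of the whole set 28 lower and 4 higher, while 39.9% of all genes were then called lower and 14.8% higher. 7 of the called falls (15.9% of the 44, against 11.5% of all genes) and 3 of the called rises (6.82%, against 6.56%) reached 2-fold.

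The most significant of the Aux/IAA changes was that of IAA13, whose stabilised form reduces lateral root formation in rice. Its signal was 4673, 4562 and 4610.4 in T65, 779, 781 and 749 in gid1-3, 3128, 3104 and 3010.3 in gid2-1, and 6209, 6769 and 6818 in slr1. The 4 lines did not overlap, and their order was gid1-3, gid2-1, T65 and slr1 from lowest to highest. IAA13 was 6-fold lower in gid1-3 than in T65 (-2.58 ± 0.05, adjusted p = 7.6e-14), 1.5-fold lower in gid2-1 (-0.58 ± 0.05, adjusted p = 5.3e-07) and 1.43-fold higher in slr1 (0.51 ± 0.05, adjusted p = 4.2e-06). The table lists IAA13 also under the name IAA1.

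IAA6, which raises drought tolerance when overexpressed in rice, moved the other way. Its signal was 2054, 1984 and 2086 in T65, 6246, 6614 and 6546 in gid1-3, 4353, 4392 and 4472 in gid2-1, and 1830.2, 1766 and 1819 in slr1. Both gid mutants stood above T65 with no overlap, gid1-3 above gid2-1, and slr1 lay just below T65. The change was 1.66 ± 0.05 for gid1-3 (adjusted p = 2.6e-12) and 1.11 ± 0.05 for gid2-1 (adjusted p = 1.9e-10), while slr1 gave -0.18 ± 0.05 (adjusted p = 0.019). The slr1 call of IAA6 was lost without T65 replicate 1 or 3 or slr1 replicate 2 (-0.17 to -0.16, limma adjusted p = 0.071 to 0.085). It also ended when each array was centred on its median and with no trend in the prior variance.

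IAA12 was low in gid1-3 and high in the other mutants. Its signal was 645, 623 and 604 in T65, 342, 328 and 379 in gid1-3, 741, 878 and 749.6 in gid2-1, and 1048, 1092 and 1131 in slr1. No line overlapped another, with gid1-3 lowest and slr1 highest. It fell in gid1-3 (-0.84 ± 0.08, adjusted p = 1.1e-06), and rose in gid2-1 (0.34 ± 0.08, adjusted p = 0.0066) as well as slr1 (0.81 ± 0.08, adjusted p = 4.4e-06). Centring each array on its median or on the spiked controls ended the call of the rise in gid2-1. IAA12 is the neighbour of IAA11 in the reference gene table, with no protein-coding gene between them, and IAA11 was not analysed here.

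IAA3 and IAA2 were low in gid1-3. IAA3 measured 10606, 10836 and 10910 in T65, 5966, 5648 and 5969 in gid1-3, 10526, 9795 and 9845 in gid2-1, and 11151, 11155 and 10268 in slr1. The gid1-3 arrays lay far below all others, the gid2-1 arrays just below T65, and the slr1 arrays on both sides of T65. The change in gid1-3 was -0.88 ± 0.06, adjusted p = 7.4e-09, against -0.10 ± 0.06 for gid2-1 and 0.01 ± 0.06 for slr1, both not called. A second IAA3 probe set, whose gid1-3 mean lay below the reporter level, fell as well (-2.79, adjusted p = 0.00038).

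IAA2 signal was 2810.5, 2730 and 2761 in T65, 1533, 1389 and 1427 in gid1-3, 2062, 1985 and 2362 in gid2-1, and 3055, 3232 and 2646 in slr1. The gid1-3 arrays lay lowest, those of gid2-1 between them and T65, and those of slr1 on both sides of T65. IAA2 was lower in gid1-3 (-0.93 ± 0.08, adjusted p = 2.2e-07) and also in gid2-1 (-0.38 ± 0.08, adjusted p = 0.002), the second a call that ended when each array was centred on its median, and measured 0.10 ± 0.08 in slr1.

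IAA30 and IAA31 are neighbours in the gene table, with no protein-coding gene between them. IAA31 signal was 1172, 1192 and 1112 in T65, 423, 513 and 474 in gid1-3, 580.2, 539 and 651 in gid2-1, and 1596, 1526 and 1227 in slr1. Both gid mutants lay below T65 and slr1 above it, without overlap. IAA31 fell in gid1-3 (-1.31 ± 0.10, adjusted p = 9.8e-08) and gid2-1 (-0.98 ± 0.10, adjusted p = 2.9e-06). Its slr1 value was 0.32 ± 0.10 (adjusted p = 0.047), a call lost under 12 of 22 other settings, among them each T65 array left out in turn, gid1-3 replicate 3, gid2-1 replicate 1, and slr1 replicates 1 and 2 (0.24 to 0.34, limma adjusted p = 0.056 to 0.19). A second IAA31 probe set stayed between 7.05 and 8.46 on average in every line, below the reporter level, and the calls of IAA31 were lost when both were averaged.

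IAA30 measured 3399, 3488 and 3675 in T65, 2256, 2310 and 2407 in gid1-3, 3579.6, 4275 and 3585 in gid2-1, and 4394, 4585 and 5297 in slr1. Its gid1-3 arrays lay below T65, its slr1 arrays above, and its gid2-1 arrays reached from within the T65 range to above it. IAA30 fell in gid1-3 (-0.60 ± 0.08, adjusted p = 2.6e-05) and rose in slr1 (0.43 ± 0.08, adjusted p = 0.0011), with 0.11 ± 0.08 in gid2-1 (adjusted p = 0.4).

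**Figure D1:**
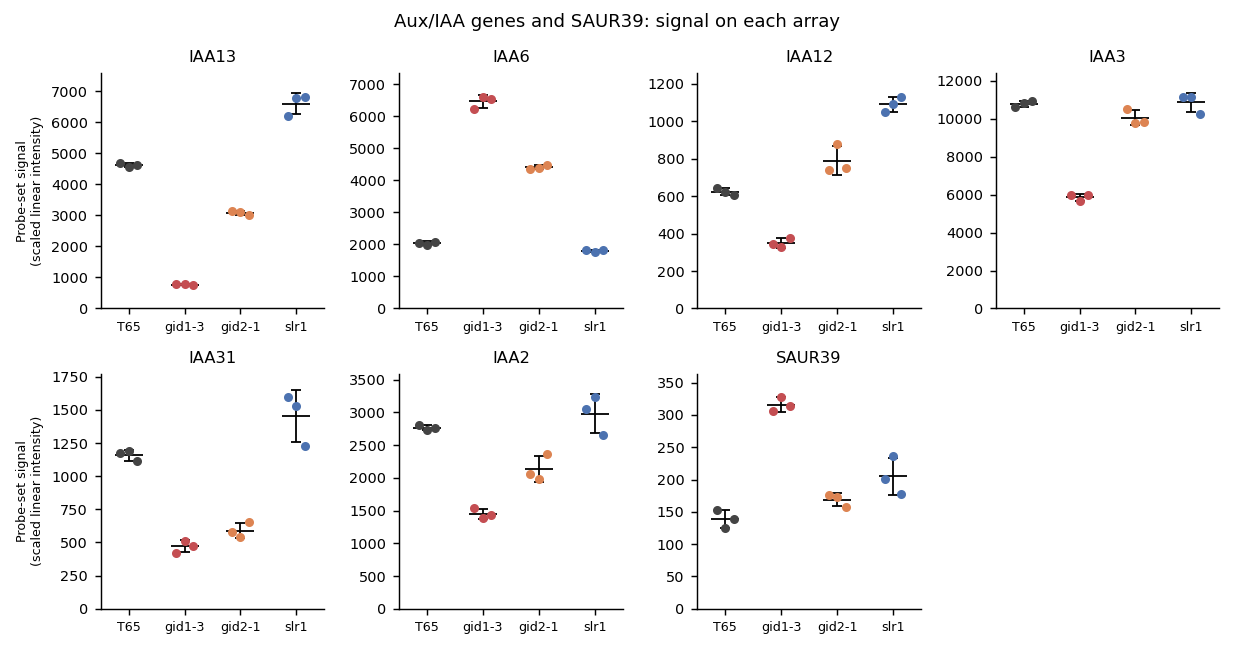
Probe-set signal (scaled linear intensity, axes from 0) of the 6 Aux/IAA genes with the smallest F-test p and of SAUR39 on each array of T65, gid1-3, gid2-1 and slr1, with points for arrays, horizontal bars for the mean and error bars for the SD (n = 3). IAA13 runs from 749 to 781 in gid1-3 and from 6209 to 6818 in slr1, while IAA6 is highest in gid1-3, at 6246 to 6614.

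IAA14 fell in both gid mutants, from 491 ± 50.7 in T65 to 167 ± 48.0 in gid1-3 (-1.59 ± 0.20, adjusted p = 9.9e-06) and to 228 ± 39.8 in gid2-1 (-1.11 ± 0.20, adjusted p = 0.00039). IAA18 rose in the same lines, from 179.9 ± 23.6 to 471 ± 70.1 (1.39 ± 0.14, adjusted p = 1.4e-06) and 389 ± 41.0 (1.12 ± 0.14, adjusted p = 1.8e-05). In slr1 IAA14 was not called (-0.42 ± 0.20), and IAA18 was called higher (0.49 ± 0.14, adjusted p = 0.023). That IAA18 call was lost without T65 replicate 1 or 2 or slr1 replicate 1 (0.39 to 0.46, limma adjusted p = 0.078 to 0.1). It also ended under median centring, under spiked-control centring and with no trend in the prior variance.

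IAA1 went in different directions in the mutants. Its signal was 1845, 2125 and 2129.8 in T65, 2228, 2548 and 2683 in gid1-3, 1389.9, 1652 and 1227 in gid2-1, and 3576, 3822 and 3680.3 in slr1, with gid1-3 above T65, gid2-1 below and slr1 highest, and no overlap between lines. It rose in slr1 (0.86 ± 0.10, adjusted p = 1.2e-05) and fell in gid2-1 (-0.52 ± 0.10, adjusted p = 0.00081). The value in gid1-3 was 0.29 ± 0.10 (adjusted p = 0.04), a call lost without any 1 of the T65 arrays, gid1-3 replicate 2 or 3 or slr1 replicate 2 (0.22 to 0.32, limma adjusted p = 0.051 to 0.18) and with arrays centred on the spiked controls. Averaging it with a second, dim probe set ended the calls in both gid mutants.

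IAA9 had a signal of 102 ± 12.0 in T65, 173 ± 9.38 in gid1-3 and 129.9 ± 18.1 in gid2-1, while slr1 had 298 ± 12.4. It rose in gid1-3 (0.77 ± 0.15, adjusted p = 0.001) and most in slr1 (1.55 ± 0.15, adjusted p = 2.6e-06), and was not called in gid2-1 (0.35 ± 0.15). IAA10, an Aux/IAA protein that a rice virus stabilises, rose by less than 0.4 in each mutant (0.31 in gid1-3, 0.31 in gid2-1 and 0.38 in slr1). With arrays centred on the spiked controls its calls in both gid mutants were lost.

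IAA25 was lower in each mutant. IAA25 went from 969 ± 34.8 in T65 to 655 ± 61.6 in gid1-3 and 488 ± 44.5 in gid2-1, while slr1 had 573 ± 26.5, with changes of -0.57 ± 0.09, -0.99 ± 0.09 and -0.76 ± 0.09. IAA7 fell in gid1-3 (-0.73 ± 0.15, adjusted p = 0.0016) and in slr1 (-0.97 ± 0.15, adjusted p = 0.00026), with -0.43 ± 0.15 in gid2-1 (adjusted p = 0.053). The other called falls in gid1-3 were those of IAA24 (-0.62 ± 0.10), IAA21 (-0.37 ± 0.09), IAA17 (-0.35 ± 0.08) and IAA15 (-0.20 ± 0.06). Each of the last 3 lost its call under 1 or 2 other settings.

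Outside these, IAA5 was called only in slr1 (0.23 ± 0.05, adjusted p = 0.0046), a call that ended under median centring, under spiked-control centring and with no trend in the prior variance. IAA4, IAA8, IAA19 and IAA23 were called in no mutant. For IAA23, which maintains the quiescent centre of rice roots, the probe set with the highest mean can bind related transcripts and gave -0.05 in gid1-3. A more specific one gave -0.46 (adjusted p = 0.0039) there and -0.31 (adjusted p = 0.047) in gid2-1, so its probe sets disagree.

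The F-box mutant gid2-1 had 23 of the 44 genes called, 7 higher and 16 lower (52.3%, against 26.1% of all probe sets and 50.8% of all genes). The share called is near that of all genes. Higher calls made up 15.9% of the 44, against 25.5% of all genes, and lower calls 36.4%, against 25.3%. The median change was -0.10, against 0.01 over all genes. Of the Aux/IAA genes 7 fell, 4 rose and 15 were not called. Lower calls made up 26.9% of this class, near the 25.3% of all genes, and higher calls 15.4%, against 25.5%. The Aux/IAA median of -0.08 was -0.12 without gid2-1 replicate 1 and -0.03 without replicate 2 or 3 of gid2-1. The median of the whole set was -0.06 without gid2-1 replicate 2. Centred on the spiked controls, which moved the median of all probe sets by -0.20, the Aux/IAA split was 10 lower and 2 higher, and that of the whole set 19 lower and 4 higher, while 33.8% of all genes were then called lower and 14.8% higher. 2 of the called rises, of IAA6 and IAA18 (4.55% of the 44, against 6.65% of all genes), and 1 of the called falls, of IAA14 (2.27%, against 7.17%), reached 2-fold. IAA24 fell (-0.34 ± 0.10, adjusted p = 0.015), a call lost without T65 replicate 1 or gid2-1 replicate 2 (-0.33 to -0.23, limma adjusted p = 0.052 to 0.069). That call also ended under median centring and with no trend in the prior variance.

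In slr1, the DELLA mutant, 23 genes were called as well, 11 higher and 12 lower (52.3%, against 19.9% of all probe sets and 39.4% of all genes). Higher calls made up 25% of the 44, against 17.3% of all genes, and lower calls 27.3%, against 22.2%. The classes were split by direction. Of the Aux/IAA genes 9 rose, 3 fell and 14 were not called, so that 34.6% were called higher, and their median was 0.12. Of the ARF genes 9 fell, 1 rose and 7 were not called, so that 52.9% were called lower, and their median was -0.26. The median over all genes was -0.06. With each array centred on its median the Aux/IAA split was 6 higher and 2 lower, the ARF split 1 higher and 5 lower, and that of the whole set 7 higher and 7 lower, while 11.6% of all genes were then called higher and 13.4% lower.

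SAUR39, a repressor of auxin synthesis and transport in rice, was the only SAUR gene measured. Its signal was 154, 125 and 139 in T65, 306, 328 and 315 in gid1-3, 176, 173 and 157 in gid2-1, and 201, 236 and 178 in slr1. The gid1-3 arrays lay highest, and every mutant array lay above the T65 arrays. It rose 2.28-fold in gid1-3 (1.19 ± 0.14, adjusted p = 6.1e-06), with 0.28 ± 0.14 in gid2-1 (adjusted p = 0.18). In slr1 it measured 0.55 ± 0.14 (adjusted p = 0.0094), a call lost without slr1 replicate 2 (0.45, limma adjusted p = 0.056) and under median centring.

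The ARF genes were lower in all mutants more often than higher. In gid1-3, 13 of 17 fell, 2 rose and 2 were not called (76.5% called lower, against 30.6% of all genes), with a median change of -0.72. In gid2-1, 9 fell, 3 rose and 5 were not called (52.9% called lower, against 25.3% of all genes), with a median of -0.22, and no called change reached 2-fold. With arrays centred on the spiked controls the gid1-3 split was 13 lower and none higher, against the same 39.9% and 14.8% of all genes.

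**Figure D2:**
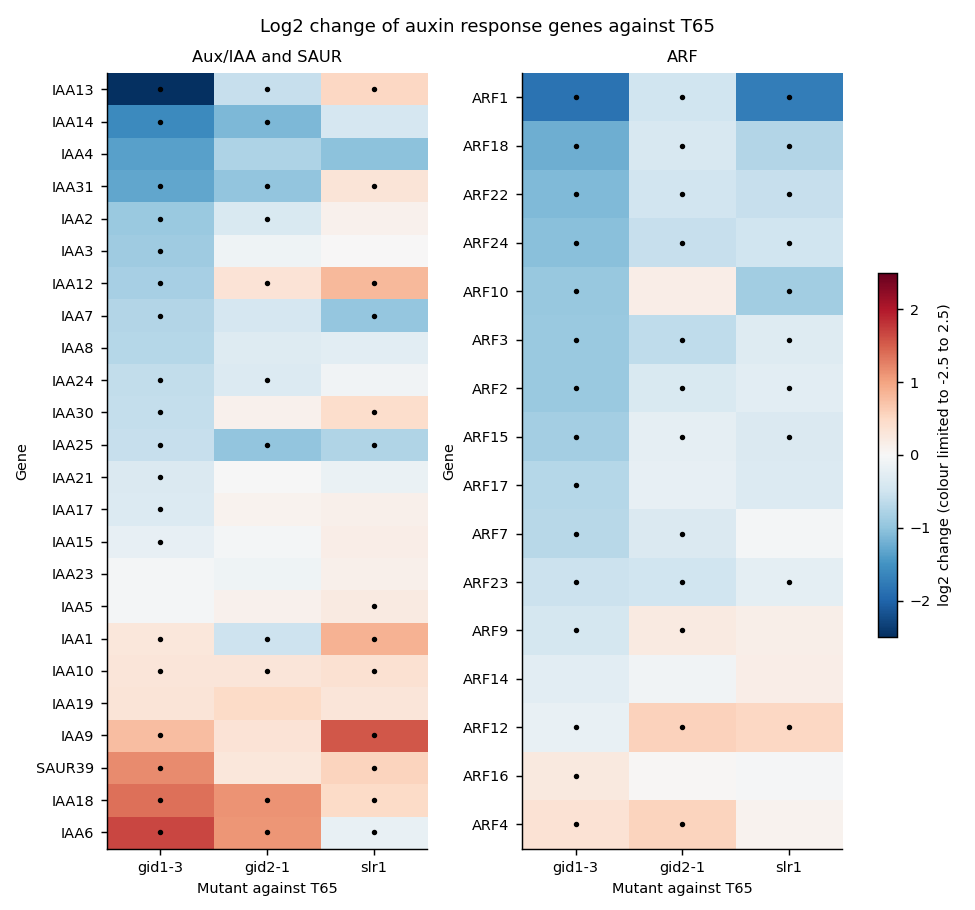
Log2 change of each gene against T65 in gid1-3, gid2-1 and slr1, as colour (blue lower, red higher, on the scale of the colour bar), with genes ordered by the change in gid1-3, black dots for adjusted p under 0.05, and the 4 genes below the reporter level in all lines left out. The ARF panel holds 13 called falls and 2 called rises in gid1-3 and 9 falls and 1 rise in slr1, while 9 Aux/IAA genes rose and 3 fell in slr1.

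ARF1 showed the largest ARF falls in gid1-3 and slr1. Its signal was 1529.9, 1516 and 1564 in T65, 438, 411 and 434 in gid1-3, 1119.6, 972 and 1173 in gid2-1, and 489, 434 and 469 in slr1. The gid1-3 and slr1 arrays lay far below T65, the gid2-1 arrays only somewhat below, and T65 overlapped with no mutant. It was 3.59-fold lower in gid1-3 (-1.84 ± 0.08, adjusted p = 9.8e-11), 3.31-fold lower in slr1 (-1.73 ± 0.08, adjusted p = 7.7e-10) and 1.42-fold lower in gid2-1 (-0.50 ± 0.08, adjusted p = 0.00015). The table lists this gene also as ARF16.

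Markers of the meristem and young stem also differed between lines. OSH1 had a signal of 1214 ± 62.2 in T65, 436 ± 14.6 in gid1-3 and 1106 ± 110.5 in gid2-1, while slr1 had 369 ± 35.9. The summed signal of the 3 measured meristem and young stem genes (OSH1, OSH71 and OSH43) was 1780 to 1920 in T65, 771 to 846 in gid1-3 and 1840 to 2020 in gid2-1, while slr1 had 766 to 831. OSH71 fell in gid1-3 (-0.65 ± 0.08) and slr1 (-0.68 ± 0.08) and rose in gid2-1 (0.58 ± 0.08, adjusted p = 2.8e-05), from 523 ± 10.4 in T65 to 785 ± 24.4. OSH43 fell in both gid mutants, to means below the reporter level, and was not called in slr1 (-0.07 ± 0.51). The part of these markers in the changes of the ARF genes was not tested.

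ARF10, ARF18 and ARF22 belong to the ARF group whose messengers are cut by the microRNA miR160. All 3 fell in gid1-3 and in slr1. ARF22 signal was 1849, 1993 and 1947 in T65, 861, 893 and 926 in gid1-3, 1340.3, 1348 and 1472 in gid2-1, and 1386, 1297 and 1214 in slr1. Every mutant array lay below every T65 array, with gid1-3 lowest. The changes of ARF22 were -1.11 ± 0.07 for gid1-3 (adjusted p = 4.2e-09) and -0.48 ± 0.07 for gid2-1 (adjusted p = 5e-05), while slr1 gave -0.57 ± 0.07 (adjusted p = 1.5e-05).

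ARF18 went from 2050 ± 141 in T65 to 880.4 ± 68.9 in gid1-3 (-1.22 ± 0.10, adjusted p = 1.9e-07) and 1238 ± 44.4 in slr1 (-0.73 ± 0.10, adjusted p = 1e-04), with a smaller fall in gid2-1 (-0.40 ± 0.10, adjusted p = 0.0091) that was no longer called after median centring of the arrays. ARF10 had a signal of 474 ± 29.6 in T65, 244 ± 17.1 in gid1-3 and 533 ± 86.6 in gid2-1, while slr1 had 261 ± 33.6. It fell in gid1-3 (-0.96 ± 0.13) and slr1 (-0.87 ± 0.13) and was not called in gid2-1 (0.16 ± 0.13, adjusted p = 0.46).

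ARF24 and ARF23 act together on a formin gene of actin organisation in rice. ARF24 signal was 4394, 4442 and 4538 in T65, 2085, 2217 and 2210.2 in gid1-3, 3032, 3074 and 2847 in gid2-1, and 3015, 3085 and 3352 in slr1. The gid1-3 arrays lay lowest, and those of gid2-1 and slr1 overlapped with each other between them and T65. ARF24 fell in gid1-3 (-1.04 ± 0.06, adjusted p = 1.6e-09), gid2-1 (-0.58 ± 0.06, adjusted p = 1.3e-06) and slr1 (-0.50 ± 0.06, adjusted p = 1.2e-05). ARF23, listed also as ARF1, also fell, with changes of -0.53 ± 0.08 in gid1-3, -0.50 ± 0.08 in gid2-1 and -0.24 ± 0.08 in slr1 (adjusted p = 0.036). Its slr1 call was lost without T65 replicate 1 or 2 or slr1 replicate 2 or 3 (-0.24 to -0.20, limma adjusted p = 0.097 to 0.14). That call also ended under median centring and with no trend in the prior variance.

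ARF15 and ARF2 are listed as ETTIN1 and ETTIN2, after the Arabidopsis ETTIN gene of flower patterning. ARF15 signal was 5371, 5308 and 5598 in T65, 3063, 2914 and 3077 in gid1-3, 4457, 4669 and 4867 in gid2-1, and 4308, 4139.8 and 4234 in slr1. Every mutant array lay below every T65 array, gid1-3 by the most. The fall was -0.85 ± 0.05, adjusted p = 6.5e-09 for gid1-3, -0.22 ± 0.05, adjusted p = 0.0055 for gid2-1 and -0.36 ± 0.05, adjusted p = 0.00014 for slr1. Median centring of the arrays ended the last 2 calls.

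ARF2 fell in gid1-3 (-0.92 ± 0.08) and gid2-1 (-0.38 ± 0.08). Its slr1 value of -0.26 ± 0.08 (adjusted p = 0.044) lost its call under 12 of 22 other settings. Among these were each array of T65 and of gid1-3 left out in turn, gid2-1 replicate 3, and slr1 replicates 1 and 2 (-0.26 to -0.23, limma adjusted p = 0.052 to 0.14). A second ARF2 probe set fell in gid1-3 (-0.61 ± 0.17, adjusted p = 0.011). It was not called in gid2-1 (-0.44 ± 0.17, adjusted p = 0.072) or slr1 (-0.37 ± 0.17, adjusted p = 0.17). ARF3 fell in gid1-3 (-0.93 ± 0.09) and gid2-1 (-0.63 ± 0.09). Its slr1 value was -0.32 ± 0.09, a call lost without T65 replicate 1 or 3 or slr1 replicate 3 (-0.32 to -0.28, limma adjusted p = 0.057 to 0.075). That call also ended under median centring and with no trend in the prior variance. ARF7 fell in gid1-3 (-0.70 ± 0.08) and gid2-1 (-0.36 ± 0.08) and was not called in slr1 (-0.06 ± 0.08).

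ARF12, ARF16 and ARF17 are the measured rice ARFs with a glutamine-rich middle region, which marks ARFs that activate transcription. They did not move as one group. ARF12, which acts in root elongation and is a target of the microRNA miR167, measured 2949, 2860 and 2797 in T65, 2632, 2422 and 2549.8 in gid1-3, 4356, 4311 and 4156 in gid2-1, and 4333, 3737 and 4217 in slr1. Its gid2-1 and slr1 arrays lay above T65 and its gid1-3 arrays below. ARF12 rose in gid2-1 (0.58 ± 0.06, adjusted p = 3.3e-06) and slr1 (0.51 ± 0.06, adjusted p = 2.1e-05). The gid1-3 value was -0.18 ± 0.06 (adjusted p = 0.042), a call lost without any 1 of the T65 arrays or gid1-3 replicate 2 or 3 (-0.20 to -0.15, limma adjusted p = 0.064 to 0.16). That call also ended under median centring and with no trend in the prior variance. ARF12 was the only ARF gene called higher in slr1.

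ARF17, another miR167 target, fell in gid1-3 (-0.72 ± 0.16, adjusted p = 0.0027) and was not called in gid2-1 (-0.20 ± 0.16) or slr1 (-0.34 ± 0.16). ARF16, which acts in auxin and phosphate responses of rice roots, rose slightly in gid1-3 (0.24 ± 0.07, adjusted p = 0.018), a call lost without T65 replicate 1 or 2 or gid1-3 replicate 3 (0.21 to 0.23, limma adjusted p = 0.057 to 0.073) and with arrays centred on the spiked controls. Of the other 14 ARF genes 11 fell and 1 rose in gid1-3, 9 fell and 2 rose in gid2-1, and 9 fell and none rose in slr1. This grouping was made with the values known.

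ARF9 and ARF4 were the other exceptions. ARF9 signal was 2794, 2773 and 2882 in T65, 2047, 2008 and 2178 in gid1-3, 3162, 3489 and 3218 in gid2-1, and 3094, 3059 and 3263 in slr1. The gid1-3 arrays lay below T65 and the gid2-1 and slr1 arrays above it. It fell in gid1-3 (-0.44 ± 0.06, adjusted p = 2e-05) and rose in gid2-1 (0.22 ± 0.06, adjusted p = 0.0085), a rise no longer called when arrays were centred on medians or on spiked controls. In slr1 ARF9 was not called (0.16 ± 0.06, adjusted p = 0.076). ARF4, which controls grain size in rice, rose from 6556 ± 214 in T65 to 8425 ± 265 in gid1-3 (0.36 ± 0.06, adjusted p = 0.00027) and to 9706 ± 784 in gid2-1 (0.56 ± 0.06, adjusted p = 4e-06). Its gid1-3 call was lost with arrays centred on the spiked controls, and in slr1 it measured 0.08 ± 0.06. ARF13 and ARF14 were not called in any mutant.

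**Figure D3:**
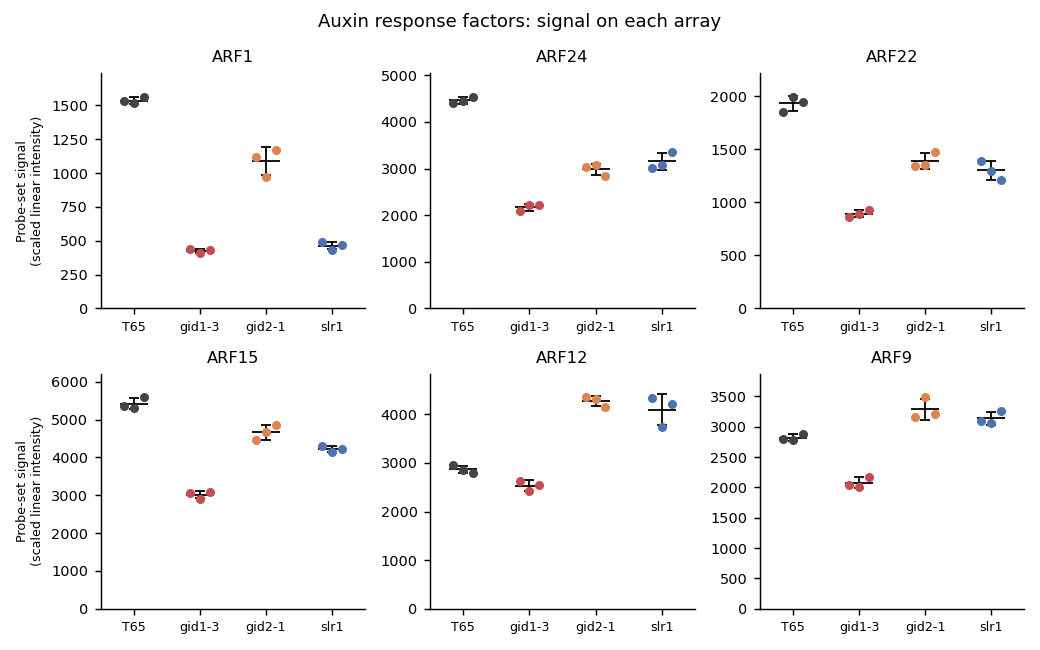
Probe-set signal (scaled linear intensity, axes from 0) of the 6 ARF genes with the smallest F-test p on each array of T65, gid1-3, gid2-1 and slr1, with points for arrays, horizontal bars for the mean and error bars for the SD (n = 3). ARF1 lies at 411 to 438 in gid1-3 and 434 to 489 in slr1, against 1516 to 1565 in T65, and ARF12 is highest in gid2-1 and slr1.

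The gid mutants were compared with each other. The T65 arrays entered this comparison only through the spread estimated over all lines, and the arrays of the gid mutants alone gave 18 lower and 4 higher calls. Of the 44 genes 21 were lower and 4 higher in gid1-3 than in gid2-1 (56.8% called, against 21.1% of all probe sets and 40.9% of all genes), and the median difference was -0.35, against -0.05 over all genes. Higher calls made up 9.09% of the 44, against 17.5% of all genes, and lower calls 47.7%, against 23.4%. Among the ARF genes 13 were lower in gid1-3 and none higher (76.5%), with a median of -0.54. ARF1 (-1.34 ± 0.08), ARF10 (-1.11 ± 0.13) and ARF18 (-0.82 ± 0.10) differed most. Among the Aux/IAA genes 8 were lower (30.8%) and 3 higher (11.5%), with a median of -0.31 (-0.16 without gid2-1 replicate 1). IAA13 (-2.00 ± 0.05, adjusted p = 1.4e-12) and IAA12 (-1.17 ± 0.08, adjusted p = 5.9e-08) differed by over 2-fold. Higher in gid1-3 were IAA1 (0.81 ± 0.10), IAA6 (0.55 ± 0.05), IAA25 (0.42 ± 0.09) and SAUR39 (0.91 ± 0.14). With each array centred on its median the whole set counted 14 lower and 5 higher, the Aux/IAA genes 4 lower and 3 higher and the ARF genes 10 lower and 1 higher. This centring moved the median of all probe sets by 0.12, and 13.4% of all genes were then called lower and 16.2% higher.

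The DELLA mutant was compared with the mean of the gid mutants, again with T65 in the estimate of the spread. Without the T65 arrays 22 genes were called higher and 5 lower. Of the 44 genes 22 were higher and 6 lower in slr1 (63.6% called, against 30% of all probe sets and 57.3% of all genes), with a median difference of 0.24, against -0.03 over all genes. Of the set, 50% was called higher, against 27.2% of all genes, and 13.6% lower, against 30.2%. Of the Aux/IAA genes 13 were higher (50%) and 3 lower (11.5%), and of the ARF genes 9 were higher (52.9%) and 3 lower (17.6%). The mean joins 2 lines that differ, so such a call need not hold against each of them. Mean slr1 signal lay below that of gid2-1 for ARF9, ARF12, ARF15 and ARF22, all called higher. It lay above that of gid1-3 for ARF1 and ARF10, called lower. All slr1 arrays lay above all gid arrays for 13 of the 44 genes and below them for 3. Among ARF genes these counts were 3 and 1, and over all 17905 genes 3648 and 4176. The largest rises were those of IAA13, which was 4.28-fold higher in slr1 (2.10 ± 0.05, adjusted p = 1.2e-13), and IAA31, which was 2.74-fold higher (1.46 ± 0.09, adjusted p = 5.8e-09). IAA12 followed with 1.06 ± 0.07, IAA9 with 1.00 ± 0.13 and IAA1 with 0.98 ± 0.09. IAA6 was 2.96-fold lower in slr1 (-1.56 ± 0.04, adjusted p = 1e-12), and IAA18 (-0.76 ± 0.12) and IAA7 (-0.39 ± 0.13) were lower too. The ARF differences were all under 2-fold, from -0.55 ± 0.07 for ARF1 to 0.47 ± 0.07 for ARF7, and the lower ones were ARF1, ARF10 and ARF4. SAUR39 was not called (-0.18 ± 0.12).

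**Figure D4:**
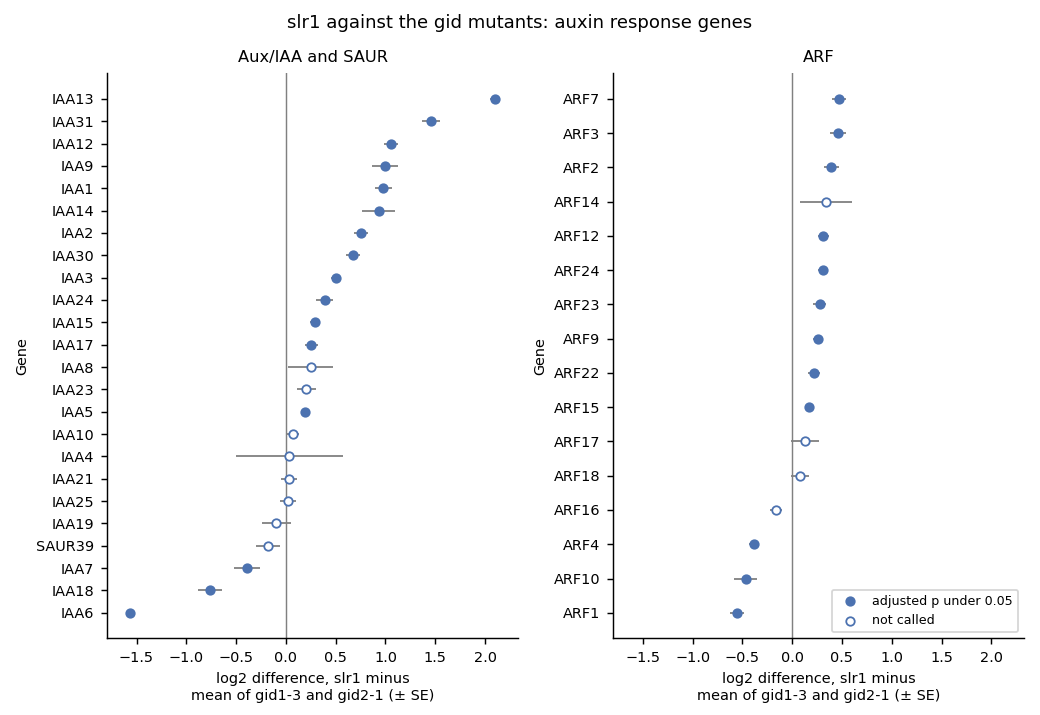
Log2 difference of slr1 from the mean of gid1-3 and gid2-1 for each gene (x axis, ± SE), ordered by size, with filled points for adjusted p under 0.05, open points for genes not called, and the 4 genes below the reporter level in all lines left out. IAA13 at 2.10 and IAA6 at -1.56 form the ends of the Aux/IAA panel, and the ARF points lie between -0.55 and 0.47.

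Genes of auxin synthesis, conjugation, transport and signalling were set beside these response genes. The list held 25 genes, of which 21 had a probe set. In gid1-3, 7 rose and 5 fell (57.1% called, against 56.4% of all genes). In gid2-1, 8 rose and 2 fell (47.6%, against 50.8%), and in slr1 3 rose and 6 fell (42.9%, against 39.4%). These total shares are near those of all genes, but the directions in gid2-1 were not. In gid2-1 38.1% were called higher and 9.52% lower, against 25.5% and 25.3% of all genes. The shares in gid1-3 were 33.3% and 23.8%, against 25.8% and 30.6%. Those in slr1 were 14.3% and 28.6%, against 17.3% and 22.2%. Centred on the spiked controls, the gid1-3 split was 5 higher and 6 lower, against 14.8% and 39.9% of all genes. No TIR1, AFB or YUCCA gene other than YUCCA1 was matched by name, and YUCCA1 was called in no mutant. This list too was drawn up with earlier results known.

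FIB, a tryptophan aminotransferase of auxin synthesis, rose in all 3 mutants. Its signal was 315, 349.5 and 289 in T65, 786, 696 and 699 in gid1-3, 819.5, 855 and 1005 in gid2-1, and 649, 558 and 553 in slr1. All mutant arrays lay above all T65 arrays. The changes were 1.19 ± 0.10 for gid1-3 (adjusted p = 2.2e-07) and 1.49 ± 0.10 for gid2-1 (adjusted p = 2.3e-08), while slr1 gave 0.88 ± 0.10 (adjusted p = 1.3e-05).

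Many GH3 enzymes join auxin to amino acids and so take it out of use, and the GH3 genes moved in different directions. GH3.5 is listed also as JAR1, a name of jasmonate conjugation, so it may not act on auxin. It counts among the rises of the list in every mutant (0.24 in gid1-3, 0.53 in gid2-1 and 0.35 in slr1). GH3-8 signal was 876, 941 and 1011 in T65, 1951, 2383 and 2276 in gid1-3, 2782, 3796 and 2183 in gid2-1, and 773, 847 and 777 in slr1. It rose in gid1-3 (1.22 ± 0.15, adjusted p = 7.4e-06) and gid2-1 (1.60 ± 0.15, adjusted p = 5.1e-07), where the arrays spread widely, and was not called in slr1 (-0.24 ± 0.15). GH3.2 measured 1257, 1257 and 1243 in T65, 1470.5, 1510.1 and 1733 in gid1-3, 562, 575 and 639 in gid2-1, and 400, 389.9 and 374 in slr1. The slr1 and gid2-1 arrays lay below T65 and the gid1-3 arrays above it. GH3.2 fell in slr1 (-1.69 ± 0.08, adjusted p = 7.3e-10) and gid2-1 (-1.08 ± 0.08, adjusted p = 3.2e-08) and rose in gid1-3 (0.32 ± 0.08), a rise that ended under median and under spiked-control centring.

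GH3.1 was lowest in gid1-3, at 143 ± 22.1 against 475 ± 15.3 in T65 (-1.74 ± 0.12, adjusted p = 2.2e-08). It was called lower in slr1 too (-0.56 ± 0.12, adjusted p = 0.0036) and was not called in gid2-1 (-0.20 ± 0.12). GH3.4 had a signal of 274 ± 2.85 in T65 and 450.4 ± 34.8 in gid2-1, while slr1 had 150 ± 21.5, so that it rose in gid2-1 (0.72 ± 0.12) and fell in slr1 (-0.88 ± 0.12, adjusted p = 7.4e-05). GH3.6 was named after its values were seen. It went from 56.4 ± 30.8 in T65 to 414 ± 37.9 in gid1-3 and 390.5 ± 21.2 in gid2-1 (3.04 ± 0.37 and 2.96 ± 0.37). In slr1 it was not called (0.97 ± 0.37, adjusted p = 0.086).

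Among the PIN transporters, PIN5A, an auxin carrier of the short PIN type, measured 1441, 1512 and 1427 in T65, 347, 334 and 317 in gid1-3, 877, 880.3 and 819.5 in gid2-1, and 1101, 1119.7 and 1119 in slr1. Each line stood apart, in the order gid1-3, gid2-1, slr1 and T65 from lowest to highest. PIN5A fell in gid1-3 (-2.14 ± 0.06, adjusted p = 2.7e-12), gid2-1 (-0.77 ± 0.06, adjusted p = 2.1e-07) and slr1 (-0.39 ± 0.06, adjusted p = 0.00036). PIN10A, which is also listed as PIN3A, rose from 419.6 ± 20.9 in T65 to 788 ± 106 in gid1-3 and 628 ± 92.1 in gid2-1, while slr1 had 754 ± 80.2 (0.90 ± 0.12, 0.57 ± 0.12 and 0.84 ± 0.12, adjusted p = 1e-04). Its gid2-1 call ended under spiked-control centring. Of the co-repressors that Aux/IAA proteins recruit, TPR2 fell in slr1 (-0.37 ± 0.10, adjusted p = 0.016) and TPR3 was called in no mutant. The entry matched to ASP1 also carries names of an aspartic protease, and its signal lay below the reporter level in every line.

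**Figure D5:**
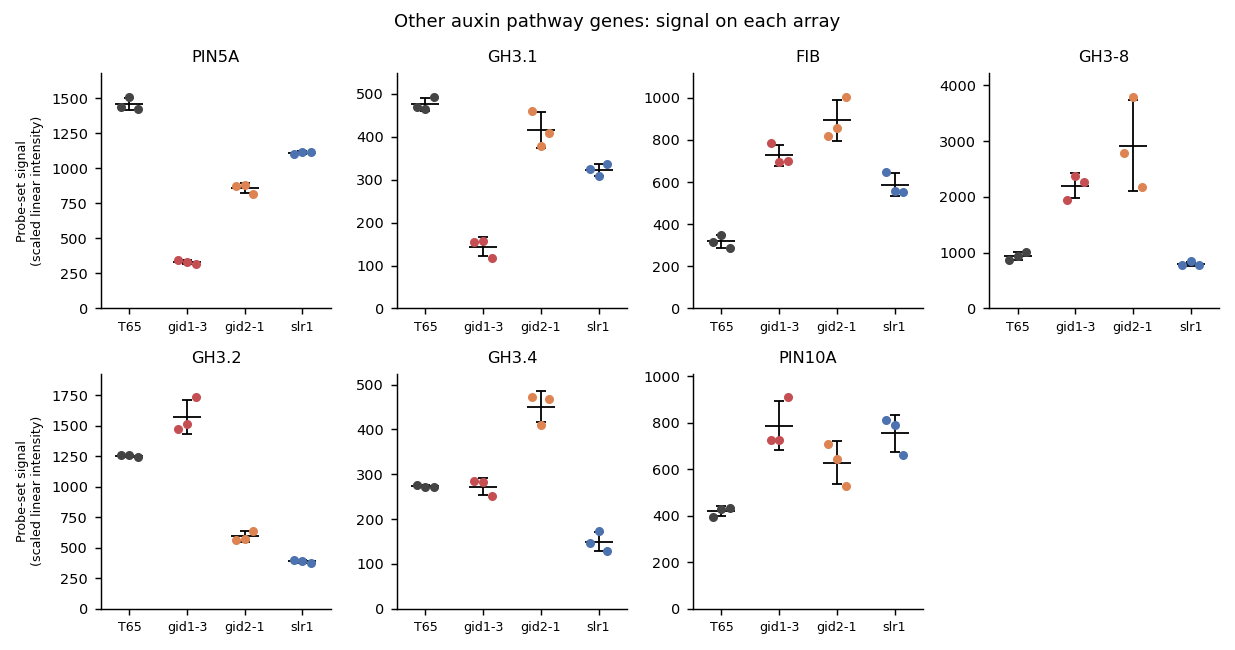
Probe-set signal (scaled linear intensity, axes from 0) of 7 other auxin pathway genes on each array of T65, gid1-3, gid2-1 and slr1, with points for arrays, horizontal bars for the mean and error bars for the SD (n = 3). PIN5A lies at 317 to 347 in gid1-3 against 1427 to 1512 in T65, and FIB lies above T65 in all mutants.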

How the data were processed

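Total RNA of rice shoots was made into biotinylated cRNA, per the labels' protocols, and measured on 12 arrays. The authors deposited 1 linear signal per probe set and array (unit: intensity). Software and background correction are not given in the sources used here. Every array has a trimmed mean of 500.1 as deposited, so no further scaling was applied. Of 57381 probe sets 187 controls were left out. Values below a floor of 1 were raised to it before the log2 step. Line means were estimated jointly over the 12 arrays in limma 3.58.1 (R 4.3.3, eBayes with a trend), with Benjamini-Hochberg adjustment across 57194 probe sets. The script was tested on simulated data.

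Genes were named through the array's gene table and the RefSeq gene table. A gene with several probe sets was represented by the one with the highest mean. Where a gene carries 2 member names, the one that no other gene holds as its only name was used. The genes and lists were chosen with earlier results of these data known. Values of every array were given for up to 6 genes per class with the smallest F-test p. Changes were given for up to 3 largest rises and falls per class and mutant, and for genes called in opposite directions. For such genes slr1 was also tested against the gid line called the other way, a test added after the data were seen. Of the other pathway list up to 4 called genes per mutant were named. Some further genes were named after their values were seen. No replicate block entered the model, as nothing in the labels links equal numbers: same-number arrays of different lines correlated at -0.09 to 0.06 after line means were subtracted, and none of 18 pairs exceeded 0.1. Sequences were not used here.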

Additional observations from a re-analysis of the deposited data

Results flagged for a closer look

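Genes called in opposite directions in 2 mutants, with the difference between the lines itself called by limma, were singled out. As the 2 lines were chosen for lying on opposite sides of T65, that difference was all but bound to be called. Its call is therefore no further support, and only its size is given. The share of all genes with such opposed calls is not given here. The list therefore does not show that opposed calls are particular to these genes. Between gid1-3 and gid2-1 these were IAA1, with a log2 difference of 0.81 ± 0.10 (gid1-3 minus gid2-1), IAA12 with -1.17 ± 0.08, ARF9 with -0.66 ± 0.06 and ARF12 with -0.75 ± 0.06. For slr1 the difference from the gid mutant called the other way was tested in the same model, a test added after the data were seen. Between slr1 and gid1-3 (slr1 minus gid1-3) these were IAA13 with 3.10 ± 0.05, IAA31 with 1.62 ± 0.10, IAA12 with 1.64 ± 0.08, IAA30 with 1.03 ± 0.08, ARF12 with 0.69 ± 0.06 and IAA6 with -1.84 ± 0.05. Between slr1 and gid2-1 (slr1 minus gid2-1) they were IAA1 with 1.39 ± 0.10, IAA31 with 1.29 ± 0.10, IAA13 with 1.10 ± 0.05 and IAA6 with -1.29 ± 0.05. For IAA1 and ARF12 in gid1-3, and for IAA6 and IAA31 in slr1, 1 side of the opposition rests on an unsteady call. Each of these calls against T65 was lost when single arrays were left out. The rises of IAA12 (0.34) and ARF9 (0.22) in gid2-1 stayed called whichever single array was left out. Both ceased to be called under median centring and under spiked-control centring. Every gene listed as opposed between gid1-3 and gid2-1 thus has a side that some setting undid.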

How the results depend on the processing

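Of 459 recomputed counts of called genes, 456 stayed within 1.5 times the reported count. The other 3 came with arrays centred on their medians: 14 of the 44 auxin response genes called in slr1 in place of 23, 6 ARF genes in slr1 in place of 10, and 7 Aux/IAA genes between gid1-3 and gid2-1 in place of 11. The cause was not tested. Leaving out each array in turn gave 31 to 37 called genes in gid1-3, 22 to 25 in gid2-1 and 17 to 25 in slr1. For ARF genes this gave 13 to 15, 12 in every case, and 7 to 11. Of the calls against T65, 25 of 34 in gid1-3, 14 of 23 in gid2-1 and 14 of 23 in slr1 were kept under all 22 alternatives. For changes of named genes, 2031 alternatives kept direction and call, 69 lost a call, 9 gained one and none turned a called direction. The replicate block, with numbers that do not pair samples, gave 35 called genes in gid1-3, 23 in gid2-1 and 22 in slr1. The number of arrays, 3 per line, limits what can be said of small changes, and cross-binding of related transcripts could not be checked without probe-level values.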
